A study of Mus musculus with 10 samples.

Results

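The naive to induced germinal center transition of B cells that lack Pcbp1 was described from 5 of the 10 RNA-seq libraries of the series, and all 21010 genes with enough counts were followed through it. The 5 libraries were chosen by their labels: 2 of naive B cells from the spleen on day 0 (naive KO) and 3 of induced germinal center B cells on day 4 (iGCB KO). The KO mice carried Pcbp1 fl/fl and Mb1-Cre, a Cre recombinase expressed from the Cd79a locus in cells of the B lineage, so T cells, myeloid cells and the spleen stroma of these mice keep the gene. The iGCB cells were primary B cells put through iGCB differentiation in the 40-LB system, in which B cells grow on a fibroblast feeder line that presents CD40 ligand and secretes BAFF. The same stages of WT mice (2 naive WT and 3 iGCB WT libraries) were used only to test where the KO transition differed. The labels name no cytokines, no sex, age or strain, and do not say whether WT mice carried Cre. They also do not say whether libraries came from separate animals. The p-values measure the spread between these libraries, which may be technical among the iGCB libraries. The 2 naive libraries of each genotype differed in sex by their transcripts, so their spread includes that between animals.

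In the mouse, a naive follicular B cell is a small resting cell that recirculates between blood and lymphoid organs. Signals through CD40 and the interleukin 4 receptor make it grow, enter the cell cycle, switch its metabolism and exchange its IgM and IgD heavy chains for IgG1 or IgE. A germinal center B cell that goes on toward an antibody-secreting plasma cell widens its endoplasmic reticulum (ER) under the transcription factors Blimp-1 (Prdm1) and Xbp1. Pcbp1 binds cytosine-rich stretches of RNA and also acts as a chaperone that delivers iron to ferritin and other proteins.

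The deposited values were counts per gene, and each KO library held 33568105 to 58983878 counts. Levels are given in CPM, the counts of a gene scaled to a common library total, after TMM scaling, and changes as log2 fold changes of iGCB over naive with standard errors (SE) from edgeR's quasi-likelihood test. "Rose" and "fell" stand for a Benjamini-Hochberg adjusted p under 0.05 over all genes. The naive KO libraries correlated at 0.9342 across genes and the iGCB KO libraries at 0.9797 to 0.9826, so the naive side carried more spread. Naive KO replicate 1 came from a female mouse by its Xist and Y-linked transcripts, and the other KO libraries came from males. That library also held more RNA of other spleen cells: 20 myeloid markers summed to 1550 CPM in it, 242 CPM in naive KO replicate 2 and 62.8 to 123 CPM in iGCB KO. Leaving it out gives the comparison among males alone.

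Pcbp1, the deleted gene, lies at chr6:86524492-86526321 (minus strand) of mm10. It stood at 4.33 and 0.448 CPM in the naive KO libraries and at 3.71, 1.96 and 2.59 CPM in the iGCB KO libraries. In WT cells it stood at 152 and 83.9 CPM in naive and 148, 327 and 326 CPM in iGCB libraries, so no KO library overlapped a WT library at either stage. Within KO cells its log2 fold change was 0.17 ± 0.67 (SE), with an adjusted p of 0.839 (edgeR). Pcbp2, its close paralog, went from 292 and 289 CPM to 462, 416 and 413 CPM and rose by 0.57 ± 0.15 (SE) on the log2 scale, adjusted p = 0.0078 (edgeR). This call was lost without naive KO replicate 2 (adjusted p = 0.0563), with the replicate block (0.0809) and with the trend of fold change with transcript length removed (log2 0.22, adjusted p = 0.162). The change of Pcbp2 in WT cells was 0.34, and the difference between the genotypes had an unadjusted p of 0.291.

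In KO cells 5208 of 21010 genes (24.8%) rose and 6603 (31.4%) fell between the naive and the iGCB stage, against 5184 (24.7%) and 6661 (31.7%) in WT cells. The median log2 fold change over all genes was -0.26 in KO and -0.25 in WT cells. Of the genes that rose in KO cells, 4338 also rose in WT cells, which is 83.3% of the KO list and 83.7% of the WT list. Of those that fell, 5599 fell in both, 84.8% of the KO list and 84.1% of the WT list. The fold changes of both genotypes correlated at 0.90 across the 21010 genes and at 0.954 across the 7379 more abundant genes, as a description over genes that share libraries and depth. In KO cells 80 genes went from under 1 CPM in each naive library to over 10 CPM in each iGCB library, and 123 went the other way. In WT cells these numbers were 72 and 122, and 53 and 77 genes met the rule in both genotypes. A test of the difference, KO minus WT, called 3 genes higher (0.0143%) and 4 lower (0.019%), and the rest of the account is ordered by the parts of the program.

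**Figure D1:**
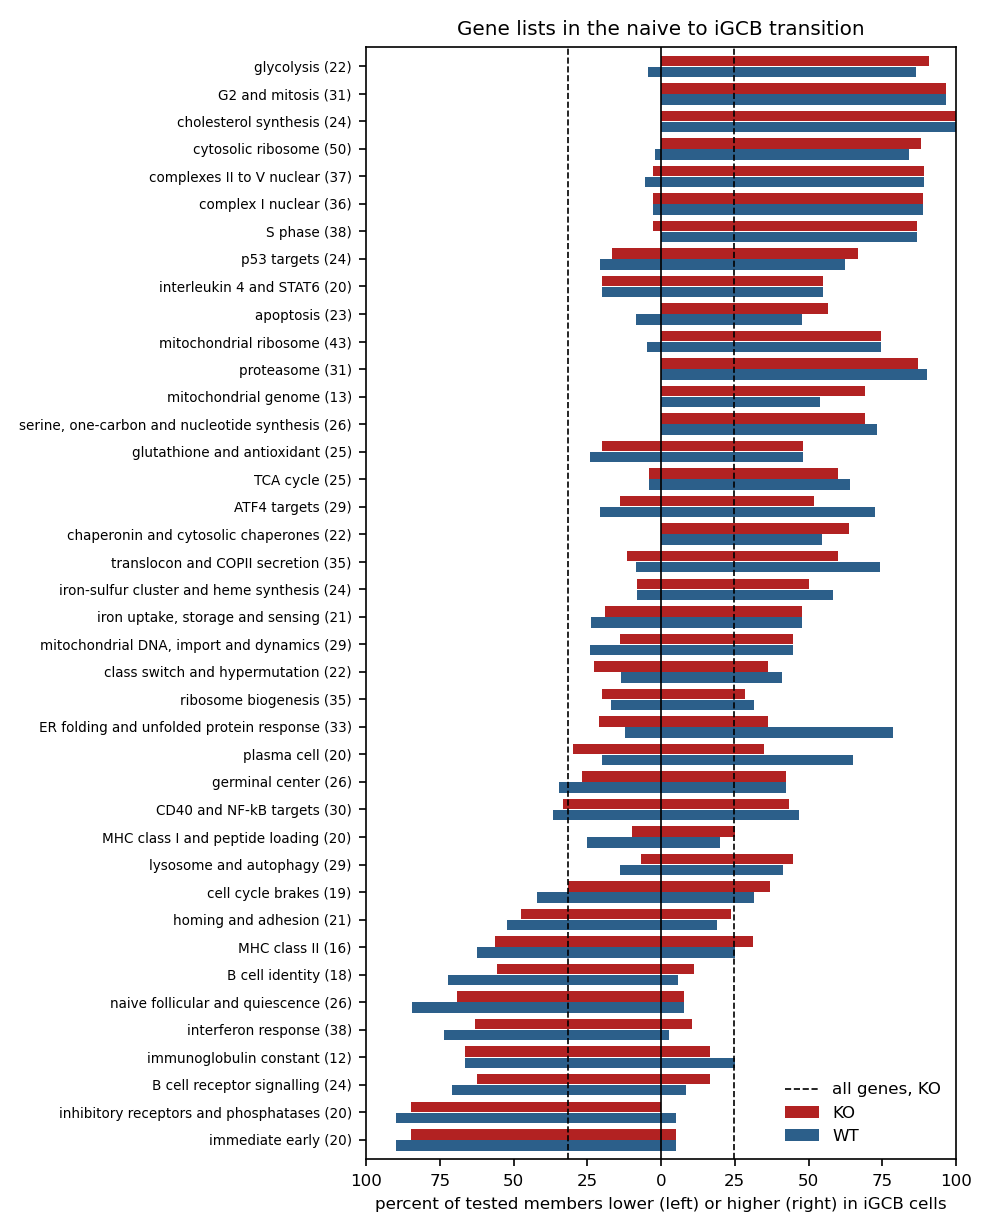
Share of the tested members of each gene list that fell (left of 0) or rose (right of 0) between naive and iGCB cells, in percent, for KO (red) and WT (blue). The number of tested members stands in parentheses, and the dashed lines mark all 21010 genes in KO cells (31.4% lower, 24.8% higher). Nearly all members of the mitosis and cholesterol synthesis lists rose in both genotypes, and in the ER folding list 26 of 33 rose in WT against 12 of 33 in KO.

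Part of the germinal center gene list rose in KO cells. Fas, the death receptor carried by germinal center B cells, went from 5.54 and 5.65 to 175, 165 and 133 CPM. Basp1, a membrane-associated protein of the list, went from 8.47 and 3.29 to 247, 199 and 177 CPM. Of the 26 tested germinal center genes 11 rose and 7 fell in KO cells (median 0.30), and 11 rose and 9 fell in WT cells. Among all genes 24.8% rose and 31.4% fell in KO cells, so the share of fallers was near that of all genes. The risers included the histone methyltransferase Ezh2 (2.36), the receptor S1pr2 (1.89) and the transcription factor Mef2b (2.65). Nuggc, a gene of the list at low counts, fell from 4.77 and 1.37 to 0, 0.245 and 0.0588 CPM (-4.90). Bcl6, the master repressor of the germinal center, did not pass in KO cells (log2 fold change 0.14, adjusted p = 0.634, edgeR) and fell in WT cells (-1.14).

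Transcripts of the IgG1 and IgE constant regions rose in cells that lack Pcbp1. Counts per gene do not tell germline from switched transcripts of a constant region. Ighg1 went from 51 and 20.1 CPM in naive KO cells to 2868, 2901 and 2841 CPM in iGCB KO cells, a log2 fold change of 6.33 ± 0.76 (SE) at an adjusted p = 7.02e-05 (edgeR). Its WT fold change was 4.79, and the 3 iGCB KO libraries lay above the WT range of 2272 to 2787 CPM. Ighe went from 1.66 and 0.627 to 1750, 1492 and 1392 CPM in KO cells and from 2.68 and 0.151 to 9183, 8703 and 8097 CPM in WT cells. The log2 fold change of Ighe was 10.36 ± 0.96 (SE) in KO cells and 12.51 in WT cells. The difference of -2.14 ± 0.92 (SE) had an unadjusted p of 0.0396 and an adjusted p of 0.789 (edgeR). Every iGCB KO library was below every iGCB WT library for Ighe.

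Of 12 tested constant region genes 2 rose and 8 fell in KO cells. Ighd, the delta chain of naive cells, was at 2995 and 2540 CPM in naive KO and at 204, 263 and 351 CPM in iGCB KO cells, a log2 fold change of -3.34 ± 0.28 (SE). In WT cells the same gene went from 2614 and 1814 to 16.1, 15.5 and 23.9 CPM (-6.90). The test of the difference gave 3.56 ± 0.40 (SE), adjusted p = 0.0219 (edgeR), so the loss of Ighd was smaller in KO cells. Ighm fell from 6220 and 6434 to 3193, 3493 and 3403 CPM (-0.91), and this call was lost without naive KO replicate 1 (adjusted p = 0.0537), naive KO replicate 2 (0.0654) or iGCB KO replicate 1 (0.0604). Ighg2b, Ighg2c and Igha also fell, from 1222 and 209, 469 and 65.3 and 587 and 374 CPM in the naive KO libraries. RNA of these isotypes was therefore present in the naive preparations, and its part in the results on antibody genes was not tested. Constant genes of the gamma chains are similar in sequence, so reads can be split or lost between them.

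The rest of the class switch and hypermutation list moved in both directions. Of 22 tested genes 8 rose and 5 fell in KO cells (3 without naive KO replicate 2), beside 9 and 3 in WT cells. Among all genes 24.8% rose and 31.4% fell in KO cells, so the share of fallers in the list was below that of all genes. H2ax, the histone variant phosphorylated at DNA breaks, went from 18 and 15.1 to 144, 193 and 145 CPM. The exonuclease Exo1 went from 9.07 and 6.45 to 34.5, 36.6 and 36.7 CPM. The glycosylase Ung, which removes uracil from DNA, rose by 1.17 on the log2 scale. The kinase Atm fell (-1.56), and so did Trp53bp1 (-1.04), which protects broken ends for joining.

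Some genes of the CD40 and interleukin 4 lists rose in KO cells, and the signal behind their rise was not tested. Ccl22, a chemokine that attracts T cells, went from 3.09 and 1.34 to 2127, 2353 and 2380 CPM in KO cells, a rise of 9.99 ± 0.49 (SE) on the log2 scale (edgeR adjusted p = 3.38e-07). The survival gene Bcl2l1 went from 8.44 and 7.98 to 155, 179 and 147 CPM and the costimulatory ligand Cd80 from 10.5 and 6.01 to 172, 140.2 and 132 CPM. Of 30 CD40 and NF-kB genes 13 rose and 10 fell (median 0.17, and -0.13 once the length trend described below was removed), beside 14 and 11 in WT cells. Among all genes 24.8% rose and 31.4% fell in KO cells, so the share of fallers was close to that of all genes. Cd86 and Icosl, ligands of the same family as Cd80, fell (-2.67 and -3.82), and the NF-kB subunits Rel, Rela and Relb fell by 0.70 to 1.01 on the log2 scale. Of 20 interleukin 4 and STAT6 genes 11 rose and 4 fell, as in WT cells. The feedback inhibitors Socs2 (5.37 and 5.51 to 442, 451 and 439 CPM) and Cish (3.71 and 1.21 to 153, 152 and 162 CPM) were among the risers, and the transcription factor Nfil3 went from 12.3 and 6.81 to 389, 435 and 392 CPM. Stat6 itself fell (-0.88), while the receptor chain Il4ra rose (1.45).

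Most genes of the naive program fell in KO cells. Cr2, the complement receptor CD21, fell from 797 and 1094 to 6.53, 5.64 and 8.65 CPM, a change of -7.09 ± 0.31 (SE) on the log2 scale (edgeR adjusted p = 2.88e-07). S1pr1, the receptor by which lymphocytes leave lymphoid organs, fell from 593 and 592 to 6.64, 3.98 and 3.71 CPM, and Rgs2, a regulator of G protein signals, from 427 and 490.2 to 3.08, 4.35 and 3.29 CPM. Of 26 naive and quiescence genes 2 rose and 18 fell in KO cells with a median of -1.23. In WT cells 2 rose and 22 fell with a median of -2.13. The KO minus WT difference was above 0 in 23 of the 26, and S1pr1 went the other way (-1.76 ± 0.47 (SE), unadjusted p = 0.00316). Unadjusted p-values under 0.05 for the difference were found for 598 genes above 0 (2.85%) and 675 below 0 (3.21%) of all genes.

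B cell receptor signalling and its brakes fell together. Of 24 signalling genes 15 fell and 4 rose (median -1.61), and of 20 inhibitory receptors and phosphatases 17 fell and 0 rose (median -1.98). The kinase Syk went from 1663 and 1727 to 158, 115 and 132 CPM, the scaffold Malt1 from 595 and 1117 to 105, 83.2 and 108 CPM and the phosphatase Ptprj from 509 and 514 to 6.44, 4.78 and 7.44 CPM. The adaptor Bank1 fell from 989.9 and 1389 to 84.4, 111 and 112 CPM in KO cells and to 18.6, 11.7 and 11.4 CPM in WT cells (difference 2.69 ± 0.39 (SE), unadjusted p = 2.53e-05, adjusted p = 0.0532, edgeR). The receptor chains Cd79a (-0.12) and Cd79b (0.35) did not pass. Of 18 B cell identity genes 10 fell and 2 rose, with Ebf1 at -2.93 and Pax5 at -1.40. The B cell markers Cd79a, Cd79b and Ms4a1 were present in every KO library, at 342 CPM or more.

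Immediate early genes, which are induced within minutes of cell handling or stimulation, were high in the naive KO libraries and low in iGCB KO. Fos stood at 366 and 660.3 CPM in naive KO and 1.94, 1.65 and 2 CPM in iGCB KO cells. Fosb went from 684 and 1329 to 0.627, 0.674 and 1.29 CPM and the nuclear receptor Nr4a1 from 396 and 537 to 3.25, 2.88 and 3.65 CPM. Of 20 such genes 17 fell and 1 rose (median -3.17), and 18 fell in WT cells. Ier3 was the riser (3.59, named after its value was seen), and Myc did not pass (-0.24). Of 38 interferon response genes 24 fell and 4 rose, with Oas2 going from 18.6 and 7.46 to 0.114, 0.306 and 0 CPM. The median of this list was -1.32, and it was -0.84 without naive KO replicate 1 and -0.81 with the sex term. Of 21 homing genes 10 fell and 5 rose, among them Itgb7 (82.4 and 78.3 to 3.99, 5.09 and 3.24 CPM) and the matrix receptor Cd44 (a riser, 1.80). The 5 risers are a share close to the 24.8% of all genes, of which 31.4% fell.

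**Figure D2:**
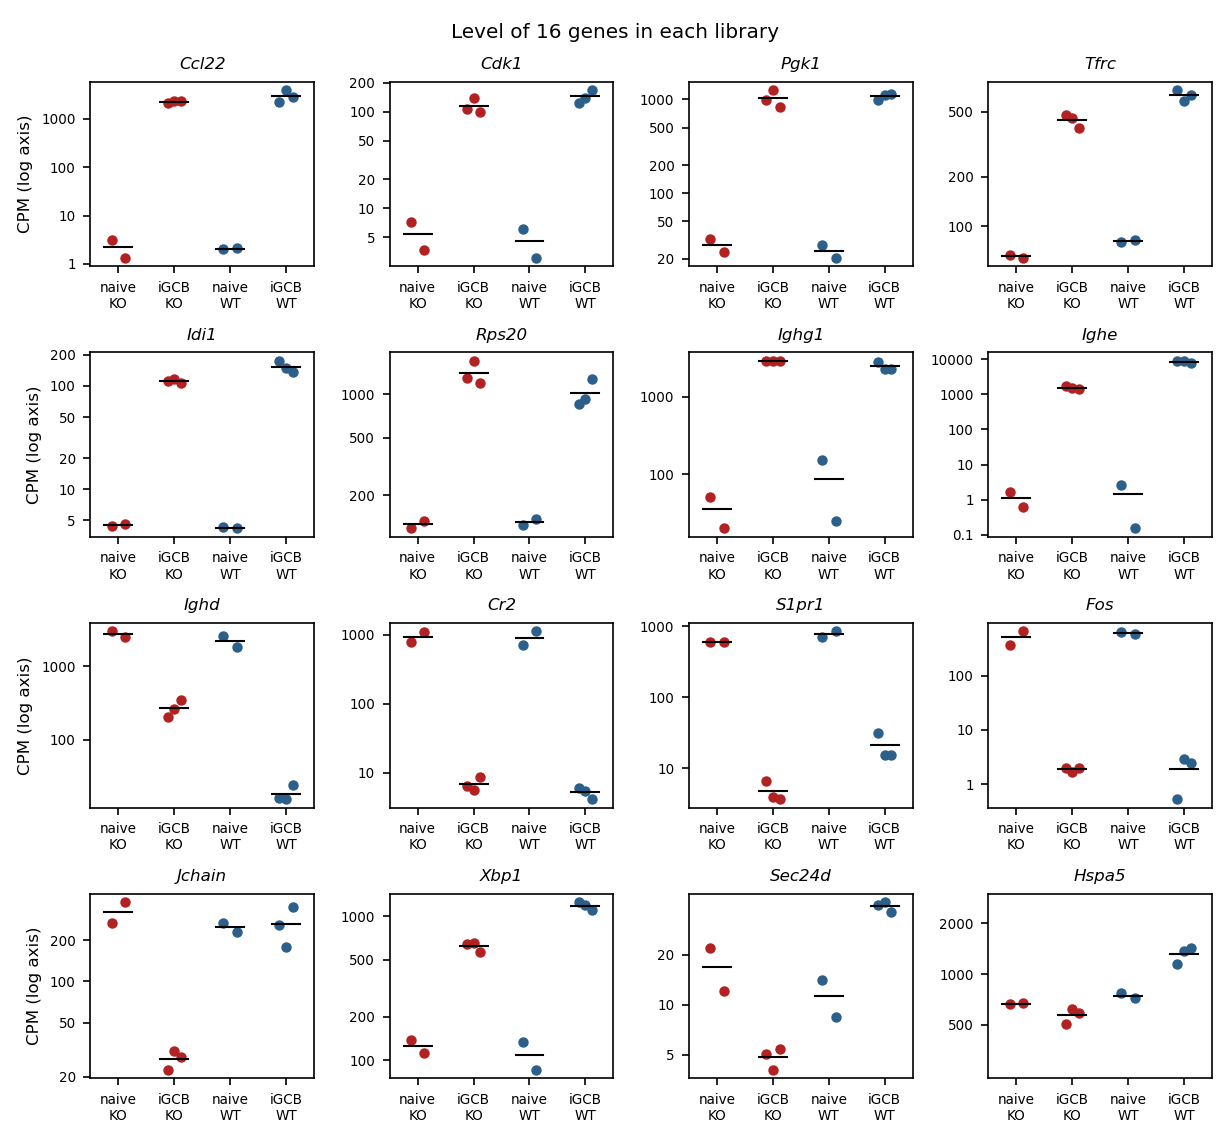
CPM of 16 genes in each library on log axes, with KO libraries in red, WT in blue and black bars at group means. Ccl22, Cdk1, Pgk1, Tfrc, Idi1 and Rps20 rise in both genotypes without overlap between the stages, whereas Jchain and Sec24d are lower in iGCB KO than in the other 3 groups, and Hspa5 is highest in iGCB WT.

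Most cell division genes rose in KO cells. Of 31 genes of G2 and mitosis 30 rose and 0 fell in KO cells (median 2.72), and 30 rose in WT cells. Ube2c, which serves the anaphase-promoting complex, went from 6.11 and 1.46 to 124, 169 and 136 CPM, and the mitotic kinase Cdk1 from 7.17 and 3.63 to 108, 139.7 and 98.5 CPM (log2 fold change 4.41 ± 0.39 (SE), adjusted p = 9.63e-06, edgeR). The difference between KO and WT for Cdk1 was -0.57 ± 0.46 (SE) with an unadjusted p of 0.241. Of 38 S phase genes 33 rose and 1 fell (median 1.78), with the helicase subunit Mcm6 at 74.9 and 57.8 CPM before and 511, 517 and 493 CPM after. The ribonucleotide reductase subunit Rrm2 went from 24.4 and 12.1 to 222, 285 and 224 CPM. Of 19 cell cycle brakes 7 rose and 6 fell, and without naive KO replicate 2 the risers were 4. Among all genes 24.8% rose and 31.4% fell in KO cells, so the share of brakes that fell was close to that of all genes. The cyclin-dependent kinase inhibitor Cdkn1a, a p53 target, went from 4.95 and 4.03 to 206, 229 and 205 CPM. Klf2, which holds lymphocytes at rest, fell from 313 and 457 to 42.2, 74.9 and 48.3 CPM.

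Promoters of mitotic genes carry a sequence known as the cell cycle genes homology region (CHR, searched as TTTGAA on both strands) and CCAAT boxes bound by the factor NF-Y. RefSeq windows of GRCm38.p6 from 250 bases before to 50 after the start were found for 27 of the 33 listed genes. Of these 27 genes 19 (70.4%) held the CHR letters, against 20.2% of all 27025 genes with a window and 16.7% of 30 S phase genes. CCAAT, on either strand, was in 85.2% of the mitotic genes and 41.1% of all. The windows of Cdk1 at chr10:69352863-69353162 (minus strand) and Ube2c at chr2:164769679-164769978 (plus strand) are shown because these genes are described above, with the CHR and CCAAT letters of either strand in capitals. Both hold several matches, and a match is a description of letters, not of a bound site.
Cdk1: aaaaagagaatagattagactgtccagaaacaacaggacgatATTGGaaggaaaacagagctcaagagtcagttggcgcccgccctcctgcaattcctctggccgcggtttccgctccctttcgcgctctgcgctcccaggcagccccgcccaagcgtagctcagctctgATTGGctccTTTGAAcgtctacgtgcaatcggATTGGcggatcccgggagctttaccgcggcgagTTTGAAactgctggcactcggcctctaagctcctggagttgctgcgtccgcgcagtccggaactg
Ube2c: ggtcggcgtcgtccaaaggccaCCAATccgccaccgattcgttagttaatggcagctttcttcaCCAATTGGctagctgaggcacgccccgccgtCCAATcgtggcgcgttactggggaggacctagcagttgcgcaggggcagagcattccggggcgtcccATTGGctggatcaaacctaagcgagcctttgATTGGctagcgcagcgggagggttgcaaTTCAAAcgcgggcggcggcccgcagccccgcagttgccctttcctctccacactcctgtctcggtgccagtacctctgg

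Genes of growth and energy metabolism rose in KO cells. Of 22 glycolysis genes 20 rose and 0 fell (median 2.76), beside 19 risers and 1 faller in WT cells. The kinase Pgk1 went from 32.7 and 23.7 to 993, 1264 and 832 CPM, a rise of 5.19 ± 0.28 (SE) on the log2 scale (edgeR adjusted p = 6.09e-07). The lactate exporter Slc16a3 went from 2.33 and 1.84 to 165, 185 and 131 CPM. All 24 genes of cholesterol synthesis rose (median 2.48), as in WT cells, among them the isomerase Idi1 (4.4 and 4.64 to 113, 117 and 108 CPM) and the synthase Hmgcs1 (19.2 and 20.1 to 266, 341 and 286 CPM). Of 26 genes of serine, one-carbon and nucleotide synthesis 18 rose and 0 fell, among them Impdh2, an enzyme of guanine nucleotide synthesis (83.5 and 67.4 to 332, 363 and 314 CPM). Of 50 cytosolic ribosomal protein genes 44 rose and 0 fell (median 2.08), and Rps20 went from 118 and 133 to 1289, 1710 and 1194 CPM. For the ribosomal proteins the KO minus WT difference was above 0 in 50 of 50, with an unadjusted p under 0.05 in 4 and an adjusted p under 0.05 in 0. Of 35 ribosome biogenesis genes 10 rose and 7 fell. These shares are close to the 24.8% of all genes that rose and below the 31.4% that fell. Without iGCB KO replicate 2 the risers were 6, and without naive KO replicate 2 the median was 0.27 instead of 0.33.

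Nuclear and mitochondrial genes of respiration rose as well. Of 36 nuclear complex I genes 32 rose and 1 fell, of 37 genes of complexes II to V 33 rose and 1 fell, and of 43 mitochondrial ribosomal proteins 32 rose and 0 fell. Ndufa2, a complex I subunit, went from 2.52 and 3.29 to 30.9, 44.4 and 29.2 CPM, and Cox5a, a cytochrome oxidase subunit, from 4.84 and 4.73 to 52.4, 66.6 and 50.1 CPM. Of the 13 tested protein genes of the mitochondrial genome 9 rose and 0 fell in KO cells (median 1.21), and 7 rose in WT cells. mt-Nd1, a complex I subunit, went from 1892 and 1516 to 4845, 5074 and 5100 CPM. Its log2 fold change was 1.56 in KO and 0.87 in WT cells, with an unadjusted p of 0.0345 for the difference. Of 25 TCA cycle genes 15 rose and 1 fell, with fumarase (Fh1) at 34.3 and 25.2 CPM before and 96.3, 119 and 98.6 CPM after. The coactivators Ppargc1a and Ppargc1b fell (-2.45 and -2.59).

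Iron genes are of interest because Pcbp1 carries iron. Tfrc, the transferrin receptor, stood at 66.5 and 64.1 CPM in naive KO and 478, 456 and 397 CPM in iGCB KO cells, a rise of 2.76 ± 0.17 (SE) on the log2 scale (edgeR adjusted p = 8.85e-07). In WT cells it changed by 2.97, and the difference had an unadjusted p of 0.344. Of 21 genes of iron uptake, storage and sensing 10 rose and 4 fell, beside 10 and 5 in WT cells. The ferritin chains Fth1 (0.90) and Ftl1 (0.53) rose, and so did Aco1 (1.34), the iron-sensing aconitase, and Glrx3 (2.00), a glutaredoxin that binds iron-sulfur clusters. The fallers were Hmox1, Slc40a1, Lcn2 and Slc25a37, of which the first 3 are high in macrophages or neutrophils. Hmox1 was at 202 and 12.8 CPM in naive KO and 14.2, 8.09 and 11.9 CPM in iGCB KO libraries, and without naive KO replicate 1 its log2 fold change was -0.15 with an adjusted p of 0.76 (edgeR). Of 24 genes of iron-sulfur cluster and heme synthesis 12 rose and 2 fell, with the scaffold Iscu going from 27 and 20.5 to 130.0, 144 and 122 CPM and the heme enzyme Cpox from 30.2 and 18.4 to 316, 341 and 312 CPM.

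Protein turnover, stress and death genes followed. Of 31 proteasome subunits 27 rose and 0 fell, and of 22 chaperonin and cytosolic chaperone genes 14 rose and 0 fell. Of 24 p53 targets 16 rose and 4 fell (median 1.65, and 1.32 in WT cells), among the risers Phlda3 (0.195 and 0.269 to 57.2, 81.5 and 54.9 CPM). Of 23 apoptosis genes 13 rose and 0 fell in KO cells: the p53-induced killer Bbc3 went from 4.28 and 6.72 to 73.7, 89.8 and 66.9 CPM. Of 29 ATF4 targets 15 rose and 4 fell in KO cells, beside 21 and 6 in WT cells. The asparagine synthetase Asns rose by 1.51 in KO and 2.85 in WT cells (difference -1.34 ± 0.55 (SE), unadjusted p = 0.033), and Pycr1, an enzyme of proline synthesis, by 1.21 and 2.96 (unadjusted p = 0.00409). The adjusted p for the difference was 0.759 for Asns and 0.407 for Pycr1 (edgeR).

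The antigen presentation lists moved in both directions. Of 16 MHC class II genes 9 fell and 5 rose, and the fallers were 4 without naive KO replicate 1 or without iGCB KO replicate 1, and the risers 3 without naive KO replicate 2. Cd74, the invariant chain, fell from 13291 and 11539 to 4570, 6305 and 4770 CPM, and H2-DMa, which helps load peptides, rose from 349.9 and 289.5 to 757, 921 and 784 CPM. Of 20 class I and peptide loading genes 5 rose and 2 fell, and 3 rose without naive KO replicate 2 or without iGCB KO replicate 2 and 9 with a term for sex. The 5 risers are a share of members close to the 24.8% of all genes. The immunoproteasome subunit Psmb8 went from 46.9 and 28.7 to 117, 145 and 117 CPM, and the class I transactivator Nlrc5 fell from 235 and 199 to 86, 65.4 and 106 CPM.

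ER folding genes rose in fewer numbers in KO than in WT cells. Of 33 genes of ER folding and the unfolded protein response 12 rose and 7 fell in KO cells with a median of 0.33. In WT cells 26 rose and 4 fell with a median of 1.11. Among all genes 24.8% rose and 31.4% fell in KO cells, so the share of fallers was below that of all genes. The KO fallers were 4 without naive KO replicate 1, naive KO replicate 2 or iGCB KO replicate 2. The KO minus WT difference was below 0 in 33 of 33 genes. It had an unadjusted p under 0.05 (edgeR) in 20 of them, beside 3.21% of all genes, and an adjusted p under 0.05 in 0. Xbp1, the transcription factor of the ER response, went from 138 and 112 to 642, 654 and 565 CPM in KO cells and from 133 and 85.3 to 1254, 1197 and 1097 CPM in WT cells. It rose in both genotypes, by 2.31 ± 0.22 (SE) and 3.44 on the log2 scale, and the difference of -1.13 ± 0.28 (SE) had an unadjusted p of 0.0022 and an adjusted p of 0.322 (edgeR).

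Hspa5 and Hsp90b1, chaperones of the ER lumen, did not pass the test in KO cells, whereas the ER chaperone Hyou1 fell (-0.57). Hspa5, the ER chaperone BiP, was at 664 and 670.1 CPM in naive KO and 506, 619 and 585 CPM in iGCB KO cells, and its log2 fold change of -0.23 ± 0.16 (SE) did not pass (adjusted p = 0.248, edgeR). In WT cells it went from 766 and 717 to 1140, 1363 and 1425 CPM (0.82). Hsp90b1, the ER form of the chaperone Hsp90, was at 479 and 424 and 380.3, 515 and 457 CPM in KO cells (-0.00), beside 1.33 in WT cells. The KO minus WT difference had an unadjusted p of 0.000879 for Hspa5 and 0.00127 for Hsp90b1, with adjusted p-values of 0.217 and 0.256 (edgeR). The stress sensor Ern1 (IRE1), which splices Xbp1 mRNA, fell in KO cells (-0.69) and rose in WT cells (1.11). Dnajb9 and Ddit3 fell in both genotypes (-3.50 and -2.60 in KO cells), and Ero1l, an oxidase of disulfide bond formation, rose alike (3.32 and 3.38).

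**Figure D3:**
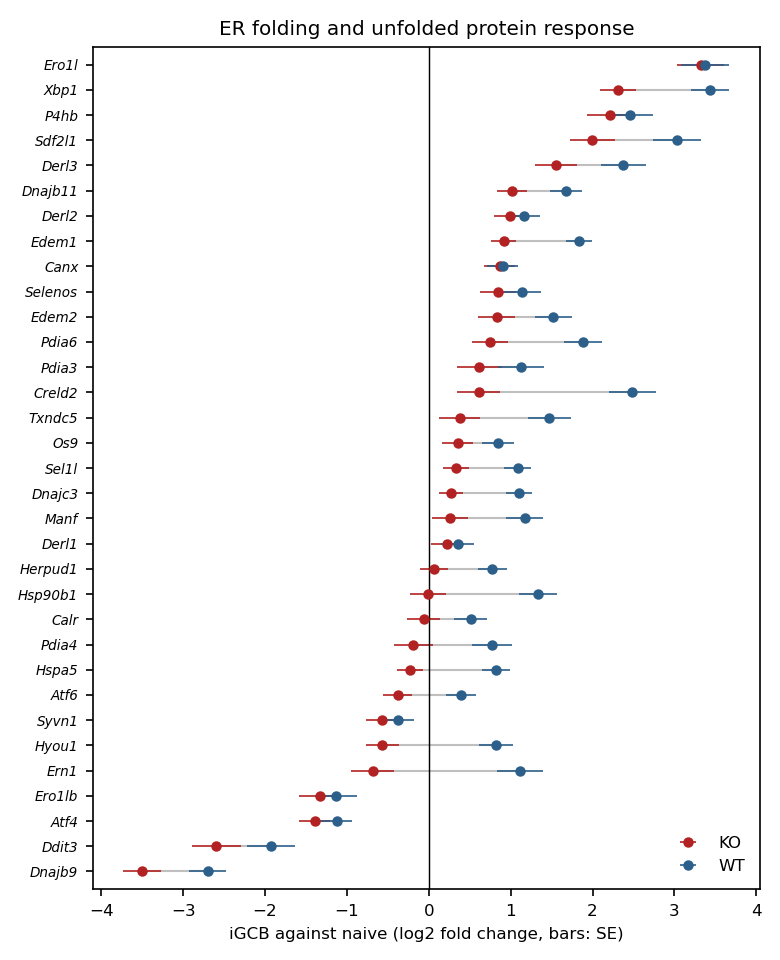
Log2 fold change of iGCB over naive for the 33 tested genes of ER folding and the unfolded protein response, in KO (red) and WT (blue), with SE bars and grey lines joining the genotypes. The red point lies left of the blue one for all 33 genes, and 12 genes rose in KO against 26 in WT.

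ER chaperone promoters are known to carry the ER stress response element, CCAAT and CCACG separated by 9 bases of any kind, to which NF-Y and ATF6 bind. This spaced pair was searched on both strands after the values of the list were known. It was present in the RefSeq windows of 9 of 27 ER folding genes with a window (33.3%) and in 37 of 27025 genes (0.137%). Apart, CCAAT was in 85.2% and CCACG in 88.9% of the 27 genes, against 41.1% and 35.5% of all. The 9 genes were Calr, Canx, Creld2, Derl3, Dnajc3, Hsp90b1, Hspa5, Pdia6 and Syvn1. In KO cells 3 of these 9 rose and 1 fell (median 0.27), and in WT cells 8 rose and 0 fell (median 1.10). The difference was below 0 in 9 of 9, with an unadjusted p under 0.05 in 6. Of the 28 other genes with the pair 11 were tested, and the difference was below 0 in 7 of them, with an unadjusted p under 0.05 in 0. Windows of 4 genes are shown with the pair in capitals, at chr2:34771840-34772139 for Hspa5 (plus strand), chr10:86705395-86705694 for Hsp90b1 (minus), chr15:88819396-88819695 for Creld2 (plus) and chr10:75893148-75893447 for Derl3 (plus). The pair is read as CCAAT then CCACG on the strand shown in Hspa5, as its reverse complement (CGTGG then ATTGG) in Creld2 and Derl3, and once in each direction in Hsp90b1.
Hspa5: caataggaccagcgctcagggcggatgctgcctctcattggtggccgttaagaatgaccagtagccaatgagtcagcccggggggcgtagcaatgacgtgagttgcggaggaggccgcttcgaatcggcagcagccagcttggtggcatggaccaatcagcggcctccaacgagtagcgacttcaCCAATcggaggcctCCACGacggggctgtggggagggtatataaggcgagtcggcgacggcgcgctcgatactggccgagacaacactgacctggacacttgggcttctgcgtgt
Hsp90b1: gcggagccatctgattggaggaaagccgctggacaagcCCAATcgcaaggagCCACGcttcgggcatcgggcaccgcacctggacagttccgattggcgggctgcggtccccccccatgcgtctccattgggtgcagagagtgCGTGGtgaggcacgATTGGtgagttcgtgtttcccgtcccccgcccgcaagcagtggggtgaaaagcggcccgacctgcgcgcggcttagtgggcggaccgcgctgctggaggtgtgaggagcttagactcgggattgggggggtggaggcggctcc
Creld2: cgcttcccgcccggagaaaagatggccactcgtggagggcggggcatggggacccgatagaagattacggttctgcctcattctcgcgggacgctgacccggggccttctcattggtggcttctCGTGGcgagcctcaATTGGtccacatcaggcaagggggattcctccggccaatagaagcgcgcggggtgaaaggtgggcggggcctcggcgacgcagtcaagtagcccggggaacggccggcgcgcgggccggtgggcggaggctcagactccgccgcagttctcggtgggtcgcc
Derl3: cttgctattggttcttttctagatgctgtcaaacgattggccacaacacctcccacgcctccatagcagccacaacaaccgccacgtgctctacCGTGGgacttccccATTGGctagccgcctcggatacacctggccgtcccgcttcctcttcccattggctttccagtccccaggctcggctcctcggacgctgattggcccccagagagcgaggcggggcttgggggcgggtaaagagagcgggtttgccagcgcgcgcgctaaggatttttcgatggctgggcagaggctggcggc

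Among genes of transport out of the ER, 1 passed the test of the difference. Sec24d, a cargo adaptor of COPII vesicles at chr3:123267455-123365641 (plus strand), fell from 21.8 and 12.1 to 5.07, 4.04 and 5.41 CPM in KO cells and rose from 14.1 and 8.42 to 40.1, 41.5 and 35.9 CPM in WT cells. Its log2 fold changes were -1.81 ± 0.29 (SE) and 1.80, and the difference was -3.61 ± 0.42 (SE), adjusted p = 0.0243 (edgeR). Of the 35 translocon and COPII genes 21 rose and 4 fell in KO cells (median 0.73), beside 26 and 3 in WT cells (median 1.16). Sec61b, a subunit of the translocon, went from 8.44 and 4.3 to 51.7, 75.1 and 44.5 CPM, and Spcs1, a signal peptidase subunit, from 20.6 and 11.9 to 81.9, 87.2 and 60.7 CPM. Creb3l2, a membrane-bound transcription factor of secretory genes at chr6:37327255-37442146 (minus strand), fell from 42.1 and 34.6 to 9.35, 8 and 10.1 CPM in KO cells and was at 36.9 and 28 and 33.1, 32.3 and 29.8 CPM in WT cells. The difference was -2.04 ± 0.28 (SE), adjusted p = 0.0421 (edgeR).

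Plasma cell genes also held 1 gene past the test of the difference. Jchain, the joining chain of secreted IgM and IgA at chr5:88519809-88527891 (minus strand), stood at 268 and 381 CPM in naive KO and at 22.5, 31.1 and 28.1 CPM in iGCB KO cells, without overlap. In WT cells it was at 267 and 231 CPM before and 257, 178 and 350.4 CPM after. The log2 fold change was -3.58 ± 0.28 (SE) in KO and 0.07 in WT cells, and the difference was -3.65 ± 0.39 (SE), adjusted p = 0.0219 (edgeR). Prdm1, which drives plasma cell fate, was at 23.3 and 10.7 CPM in naive KO and 12.7, 7.35 and 10.3 CPM in iGCB KO cells and did not pass (-0.75, adjusted p = 0.125, edgeR). It rose in WT cells (1.20), with an unadjusted p of 0.00565 for the difference. Of 20 plasma cell genes 7 rose and 6 fell in KO cells (median 0.33), and 13 rose and 4 fell in WT cells (median 1.69). Among all genes 24.8% rose and 31.4% fell in KO cells, so the share of fallers was close to that of all genes. The difference was below 0 in 18 of 20, with an unadjusted p under 0.05 (edgeR) in 11, beside 3.21% of all genes. Without naive KO replicate 2 the KO median was -0.08. The list shares Xbp1, Creld2 and Derl3 with the ER list. Mzb1, a cochaperone of antibody folding, rose in both genotypes (2.03 and 4.01), and the receptor Tnfrsf17 was at 1.37 and 0.807 CPM in naive KO and at 0 counts in every iGCB KO library.

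Counts of the V segments, the variable parts of antibody chains, fell in KO cells more often than they rose. Of 206 tested V segments 4 rose and 99 fell in KO cells (median -1.12), and 66 rose and 7 fell in WT cells (median 0.59). The KO shares were 1.94% and 48.1%, beside 24.8% and 31.4% of all genes. The difference had an unadjusted p under 0.05 (edgeR) with KO lower in 153, beside 3.21% of all genes, and with KO higher in 0, beside 2.85%. It passed the adjusted threshold in 0. Summed over the segments, the level was 5307 and 3860 CPM in naive KO and 2163, 2016 and 1942 CPM in iGCB KO libraries. In WT libraries it was 5434 and 2601 CPM in naive and 6229, 4615 and 9995 CPM in iGCB cells. The iGCB KO sums lay below all other sums. More heavy chain than kappa segments fell: 83 of 104 heavy V segments fell in KO cells against 7 in WT cells, whereas 15 of 97 kappa segments fell in KO cells and 58 rose in WT cells. The kappa constant gene Igkc fell from 10365 and 7889 to 2681, 2997 and 2614 CPM in KO cells (-1.72) and did not pass in WT cells (-0.51). V segments are near-identical copies that can share reads, so a single segment's count is uncertain. In bulk RNA, fewer cells of a type and less RNA per cell cannot be told apart.

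**Figure D4:**
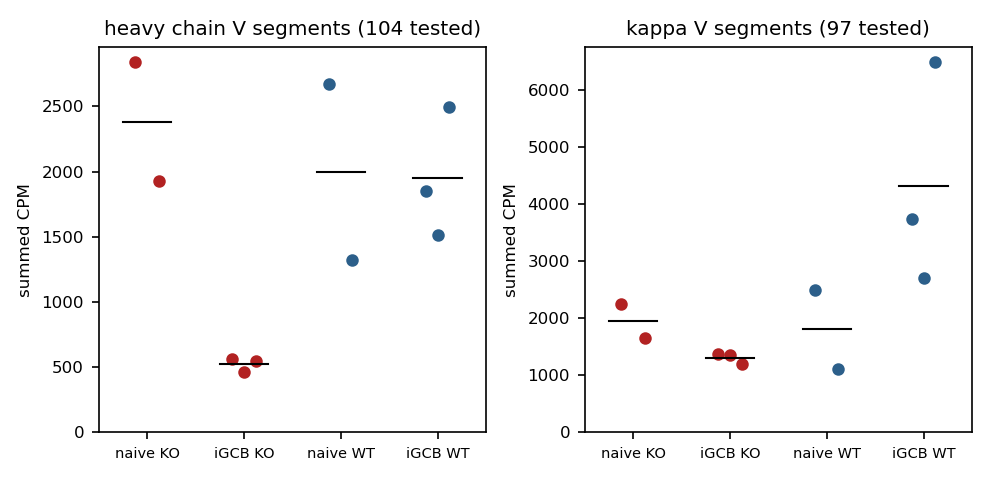
Summed CPM of the tested heavy chain (left, 104) and kappa (right, 97) V segments in each library, on linear axes from 0, with KO in red, WT in blue and black bars at group means. The 3 iGCB KO libraries lie at 466 to 564 CPM for heavy segments, under every other library, and at 1202 to 1380 CPM for kappa segments.

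Calls in opposite directions were rare: 15 genes fell in KO cells and rose in WT cells, and 0 did the reverse. The number depended on the setting. It was 6 with the replicate block and 11 with the length trend removed. It was 24 with library size scaling, 25 with DESeq2, 35 with the sex term and 38 without the low-count filter. The reverse was called for 1 gene with the sex term and 3 without the filter. Of the 15 genes, 5 were also called with the replicate block, 7 with the length trend removed, 11 with the sex term and 12 without the filter. Library size scaling and DESeq2 kept all 15. The 15 were 7 V segments and 8 other genes, which were singled out after their values were seen. Beside Sec24d and Ern1 these were Bhlha15 (Mist1, a factor of secretory cells; -1.82 in KO and 1.35 in WT), the ER chaperone Hyou1 (-0.57 and 0.82), Hid1, a protein of secretory granules (-1.04 and 2.40), Fndc3b (-0.69 and 1.10), the RNA-binding protein Rbm47 (-1.46 and 1.28) and Atad2 (-0.74 and 1.06). Of the 15, the adjusted test of the difference called Sec24d alone. The falls of Atad2, Hyou1, Fndc3b, Ern1 and Hid1 in KO cells were near the threshold, with adjusted p-values of 0.0322 to 0.0478 (edgeR).

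**Figure D5:**
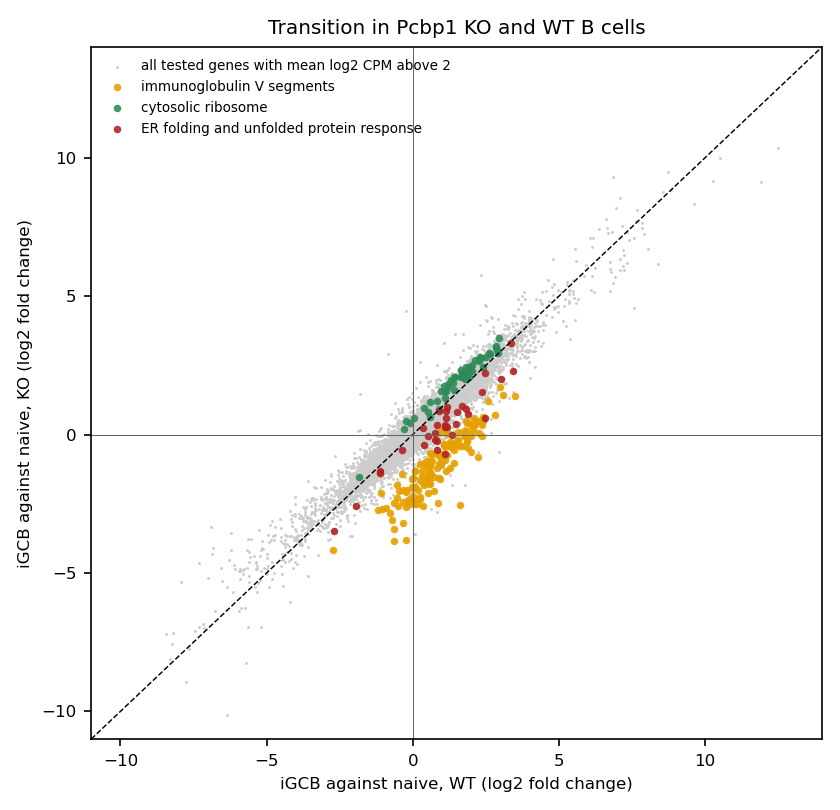
Log2 fold change of iGCB over naive in KO cells against that in WT cells for genes with a mean log2 CPM over 2 (grey), with V segments (yellow), cytosolic ribosomal proteins (green) and the ER folding list (red). The dashed line marks equal change: all 50 ribosomal protein genes lie above it, all 33 ER genes below it, and the V segments lie in a band below it.

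The remaining adjusted differences were in 3 genes. Fmnl2, a formin that builds actin filaments, was at 16.2 and 11.7 CPM in naive KO and 17.2, 11.3 and 15.4 CPM in iGCB KO cells, and went from 10 and 9.98 to 76, 52.7 and 63.9 CPM in WT cells. Its difference was -2.61 ± 0.34 (SE), adjusted p = 0.0394 (edgeR). The predicted gene Gm19585 went from 17 and 16.2 to 104, 115 and 87.5 CPM in KO cells and from 7.02 and 8.8 to 7.39, 10.3 and 10.3 CPM in WT cells, a difference of 2.38 ± 0.29 (SE). Zfp521, a zinc finger gene, had 0 counts in naive KO cells and 24.3, 22.5 and 27.9 CPM in iGCB KO cells, beside 0.186 and 0.252 and 19.7, 17.5 and 23.2 CPM in WT cells. Its fitted difference depends on the prior count and is no bound. With any 1 of the 3 iGCB KO libraries left out, edgeR called 0 genes in the difference in either direction, and 1023 to 1045 genes had an unadjusted p under 0.05.

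The largest single changes in KO cells included genes outside these lists. Scn3a, a neuronal sodium channel, had 0 counts in both naive KO libraries and 283, 166 and 234 CPM in iGCB KO cells. P2rx3, an ATP-gated channel, went from 0.391 and 0.0224 to 185, 95.7 and 113 CPM, Htr7, a serotonin receptor, from 0.619 and 0 to 148, 160.2 and 155 CPM, and the class I-like gene H2-M5 from 0.326 and 0.269 to 197, 173 and 143 CPM. Atp11a, a phospholipid flippase, went from 2.49 and 2.06 to 433, 265 and 403 CPM and Psrc1, a spindle protein, from 2.35 and 0.762 to 275, 292 and 279 CPM. All of these rose in WT cells too. Among the falls, Plaur, the urokinase receptor, went from 344 and 217 to 2.45, 0.643 and 1.35 CPM and Rasgef1b from 281 and 437 to 2.17, 2.11 and 3 CPM. The nuclear RNA Malat1 went from 8306 and 11777 to 144, 95.1 and 119.7 CPM. Of 790 tested genes of its type (lincRNA), 284 fell and 92 rose in KO cells. The part of the library differences described below in this fall was not tested. By CPM gained, Eef2, the elongation factor (3090 and 2569 to 8455, 7966 and 7142 CPM), and the glycolytic kinase Pkm (406 and 295 to 3644, 3891 and 2901 CPM) were among the first.

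Several properties of the libraries moved with the stage, in both genotypes. Rn7sk, a small nuclear RNA without a poly(A) tail, took 14461 and 9105 CPM in naive KO and 3.14, 2.7 and 1.59 CPM in iGCB KO libraries. Of 165 tested snRNA genes 101 fell and 0 rose in KO cells, and of 1146 antisense genes 562 fell and 54 rose, whereas of 13862 protein-coding genes 4396 rose and 3491 fell. Shorter transcripts rose more: among protein-coding genes with a mean log2 CPM over 2, the fifth with the shortest exons had a median log2 fold change of 0.91 and the fifth with the longest -0.41 in KO cells, and 0.83 and -0.43 in WT cells. With this trend removed, the medians were 2.56 for mitosis, 2.55 for glycolysis, 1.97 for cytosolic ribosomal proteins, 0.02 for ER folding and -0.01 for ribosome biogenesis. Stage and such library differences cannot be told apart here. Markers of other cells moved too: erythroid genes summed to 228 and 33.9 CPM in naive KO and 4.70 to 9.94 CPM in iGCB KO, and 12 neutrophil genes to 38.5 and 15.9 CPM and then 1.10 to 2.32 CPM. The 26 fibroblast genes summed to 272 and 236 CPM in naive KO and to 949, 1080 and 867 CPM in iGCB KO, where 2 or 3 of them were at 0. Col1a1, the defining fibroblast collagen, was at 0.0651 and 0 CPM in naive KO and 20.7, 13.7 and 16.2 CPM in iGCB KO, and the part of feeder RNA in the rises was not tested.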

How the data were processed

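RNA-seq was used on splenic naive B cells and iGCB cells of Pcbp1 KO and WT mice, 10 libraries in 4 groups taken from the labels. The authors deposited counts for each gene symbol, made with featureCounts on mm10 per the submitters' processing notes. The strand setting, aligner, versions and annotation were not given in the sources used here. Per the labels, total RNA went into a kit for mRNA libraries. Without a stated strand setting, reads of overlapping and antisense genes cannot be told apart. Odd values made up 17.7% to 26.9% of counts from 1 to 20 in a library, so mates were largely counted singly and a count is not an independent fragment. Positions, gene types and exon lengths came from GENCODE M21, which held 96% of the 55492 symbols.

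Genes were filtered with edgeR's filterByExpr (minimum count 10), which kept 21010, scaled with TMM and fitted in a single quasi-likelihood model of all 4 groups (edgeR 4.0.16, R 4.3.3; residual degrees of freedom 6). The contrasts were iGCB against naive in KO cells, the same in WT cells, and their difference. P-values were two-sided and adjusted by the Benjamini-Hochberg method, with a threshold of 0.05. Each SE was derived from the log2 fold change and its F statistic. Lists were described by counts and medians without a set test. On simulated counts of 19733 genes for the KO transition, 100 genes were changed 2-fold and 100 were changed 4-fold. Of these, 26% and 73% were recovered, with 5.71% false calls. Far more genes passed in the real libraries, which makes the adjusted threshold easier to reach, so these shares do not carry over to them.

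The members and gene lists were chosen with earlier results of these data known. Named genes were Pcbp1 and Pcbp2, the 12 largest rises and falls with a mean log2 CPM of at least 3 and groups that did not overlap, the 6 largest rises and falls in CPM, the genes past the test of the difference, and up to 4 members per list past the threshold; rankings skipped antibody gene segments, predicted genes and clones. Other list members are named as examples chosen after their values were seen. Alternatives were library size scaling, DESeq2 1.42.0, no low-count filter, a replicate block, a sex term, each genotype fitted alone and each library left out. Protein-coding genes alone and a removed length trend were added after seeing the data. Number 1 did not pair the stages within a genotype: by Xist and Y-linked transcripts naive replicate 1 was female and iGCB replicate 1 male in both genotypes. Number 2 gave no sign of pairing. After group means were removed, same-numbered libraries correlated at -0.136 and -0.229 in KO and -0.142 and 0.15 in WT across 7379 genes. With 2 naive libraries per genotype these deviations mirror each other, so the values are not separate tests. The naive libraries split by number on the second principal component (84.74 and 76.19 against -68.15 and -61.74). In both genotypes naive replicate 1 was female and naive replicate 2 male, so sex and number cannot be told apart. Between libraries of a group, chi-square divided by its degrees of freedom was 24.4 to 242, so none was a repeat of another.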

Additional observations from a re-analysis of the deposited data

Results flagged for a closer look

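The transition of 7 genes differed between KO and WT cells by the test of the difference (edgeR, adjusted p under 0.05). KO was below WT for Fmnl2 (-2.61), Sec24d (-3.61), Jchain (-3.65) and Creb3l2 (-2.04), as differences of log2 fold changes. KO was above WT for Ighd (3.56), Gm19585 (2.38) and Zfp521 (6.49), the last with a naive KO group at 0 counts. Each of these differences kept its sign when any 1 library was left out, and each had an adjusted p over 0.05 in at least 4 of those 10 fits.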

How the results depend on the processing

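The KO transition had 3910 to 5851 risers and 4408 to 7256 fallers over library size scaling, DESeq2, no low-count filter, the replicate block, the sex term, KO libraries alone and a removed length trend, and 3936 to 4601 and 4772 to 5766 when 1 library was left out. Among protein-coding genes alone 4050 rose and 4088 fell, where fewer genes were tested. WT fallers were 4161 among protein-coding genes and 4219 with the replicate block. With library size scaling the median over all genes moved from -0.26 to -0.36. The difference of the transitions depended most on the setting. DESeq2 called 72 genes higher and 170 lower, no low-count filter 115 and 258, and the sex term 21 and 87; the cause was not tested. The replicate block joined libraries of 1 number within a genotype. Those numbered 1 differed in sex between the stages, and number 2 showed no sign of pairing. The block called 5 higher and 6 lower and changed the KO transition to 3910 risers and 4408 fallers. Protein-coding genes alone gave 0 higher and 4 lower. With 1 library left out the difference called 0 to 20 higher and 0 to 53 lower, the largest numbers without naive WT replicate 2 (20) and naive WT replicate 1 (53).

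Of the named genes that passed in the KO transition, 2583 values under the alternatives stayed past the threshold with the same sign, 42 did not pass and 0 changed sign. List medians moved by more than the spread between libraries in 127 of 649 cases, 27 of them with the length trend removed, 24 with the sex term and 23 without naive KO replicate 1. With the length trend removed the medians of lysosome and autophagy (-0.10), class I presentation (-0.10), ribosome biogenesis (-0.01) and CD40 targets (-0.13) changed sign. The naive side has 2 libraries of different sex and cell makeup, so small differences may have been missed. The simulation, with 100 genes changed at each fold, does not give the share missed here.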

Other observations

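Markers of other lymphoid and dendritic cells moved in both directions in KO cells. Of 9 NK and innate lymphoid genes 2 rose and 1 fell, beside 24.8% and 31.4% of all genes. Of 10 dendritic genes 3 rose and 4 fell (median -0.57, and 0.41 without naive KO replicate 1). Of 16 T cell genes 1 rose and 10 fell (median -2.70, and -1.06 without naive KO replicate 1). The summed level of the T cell genes still went up, from 162 and 63 CPM in naive KO to 326, 382 and 398 CPM in iGCB KO. Gzma, a granzyme of cytotoxic lymphocytes, went from 0.358 and 0.179 CPM in naive KO to 8.24, 6.56 and 10 CPM in iGCB KO libraries (log2 fold change 4.91 ± 0.85 (SE), adjusted p = 0.000748, edgeR), beside 2.07 in WT cells. Prf1, which encodes perforin, was at 10.9 and 12 and 10.7, 10.6 and 12.4 CPM and did not pass (-0.03). The cytokine receptor Flt3 went from 7.2 and 5.96 to 70.9, 76.8 and 72.3 CPM and the transcription factor Zbtb46 from 3.68 and 2.87 to 48.6, 42.3 and 43.9 CPM, and both also rose in WT cells (2.86 and 3.61). The T cell constant gene Trac was at 12 and 2.02 CPM in naive KO and 0.684, 1.1 and 1.12 CPM in iGCB KO libraries, and its fall was not called without naive KO replicate 1 (adjusted p = 0.175, edgeR).

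The other Pcbp paralogs rose in KO cells. Pcbp3 rose by 1.23 and Pcbp4 by 2.47 on the log2 scale, beside 1.59 and 3.40 in WT cells, and the difference for Pcbp4 had an unadjusted p of 0.0167.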
